A study of Mus musculus with 23 samples.

Results

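The genes described here encode the Wnt ligands, their Frizzled receptors and the secreted antagonists of the Sfrp and Dkk families, followed through the skeletal muscle lineage of the mouse. A gene belonged to the set if its name in the scanner files was Wnt, Fzd, Sfrp or Dkk with a family number and, for some ligands, the letter a or b. This rule used names and no measured value, and it found 37 of 36095 genes on the array, namely 19 Wnt, 10 Fzd, 4 Sfrp and 4 Dkk genes on 43 probes. Each gene was read from its brightest probe. Of the 37 genes, 27 were well above background in all 3 samples of at least 1 group, 9 were so in every group, and 4 were above background in no sample.

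Total RNA was measured on 23 one-colour Agilent arrays. There were 7 groups of 3 samples. They comprised embryonic stem cells, primary myoblasts of passage 0, the dividing myoblasts of passages 8 to 10 (called proliferating myoblasts below), myotubes on days 1, 2 and 4 of differentiation, and quadriceps muscle. The stem cells were 3 lines, cGR8 of strain 129Sv, RD1 of strain 129X1/SvJ and E14tg2 of strain 129/Ola, so the spread in that group is a spread between lines. Myoblasts and myotubes came from C57BL/6J mice. Quadriceps replicate 1 was from a C57BL/6J mouse and replicates 2 and 3 were of mixed 129Sv/C57BL/6J background. Myoblasts grew in Ham's F-10 with serum and bFGF on collagen, and confluent cells were moved to Matrigel and a medium with 2% horse serum to form myotubes. The labels name no transgene or added agent, and give no ages. Nothing in the labels says that numbered samples of a group came from separate animals, so a p-value here reflects how far these samples scatter, which may be technical. The series sets expression beside DNA methylation along the lineage, and the expression arrays are described here. The titles of proliferating myoblasts and of day 1, 2 and 4 myotubes share the numbers 21, 26 and 28 for replicates 1, 2 and 3, which are called culture numbers here, and what they mark is not stated. All 13 calls between these groups had the same sign within each number. The samples of the 2 groups overlapped in none of these calls, so any pairing would give the same sign. The count therefore adds no support. A further array of NOD/ShiLtj skeletal muscle had no replicate and is quoted only as a single value.

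Wnt proteins are secreted lipid-modified ligands that bind Frizzled receptors, seven-pass membrane proteins, together with the coreceptors Lrp5 and Lrp6 for signalling through beta-catenin, or with Ror and Ryk receptors for signalling without it. Sfrp proteins carry a Frizzled-like domain and bind Wnt ligands outside the cell, while Dkk proteins of the Dkk1 kind bind the Lrp coreceptors. In skeletal muscle these signals are known for their parts in the specification of muscle precursors in the embryo, in satellite cell activation and in the differentiation and growth of fibres.

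Every level below is the log2 of an array's processed signal minus the log2 of that array's 75th percentile, and values of a group are given in the order of replicates 1, 2 and 3. A level compares 1 gene between samples, and levels of different probes cannot be set against each other. A gene entered a comparison's test when all 3 samples of either group were above background. It is said to have risen or fallen if the adjusted p of limma was under 0.05 and the fold was at least 2. A fold against a group with all samples below background is written as a lower bound, with the words at least.

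The labelled cell types were checked against marker genes. All 6 stem cell markers were above background in the stem cells, where the log2 of their summed level ran from 9.89 to 10.22. Of 6 myoblast markers 5 were above background in every myoblast and myotube sample and Myf5 in none, and the 6 adult muscle markers had their highest summed level, 12.46 to 12.92, in quadriceps. Between 39.1% and 60.1% of spots on an array were above background. The array of proliferating myoblast replicate 1 was the dimmest, with a 75th percentile of 87.7 intensity units against 207.6 to 764.8 on the others. Over the 12914 genes compared (genes are no replicates) proliferating samples correlated with each other at r from 0.881 to 0.965 and their median SD was 0.58, against 0.23 in passage 0 myoblasts. Fitted on the samples of the 2 groups alone, limma called 0 of all genes in proliferating against passage 0 myoblasts. It also called 0 in day 1 myotubes against proliferating myoblasts and 0 in day 4 against day 2 myotubes. Calls in each of these comparisons rest on the spread shared over 7 groups.

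The stretches of DNA just upstream of the genes that rose during myotube formation are shown first, as the sequence context of the set. RefSeq windows of 250 bases before a transcription start were at hand for 25 of the 37 genes, in 28 windows on build GRCm38.p6. The windows of 4 genes that were higher in day 4 myotubes than in proliferating myoblasts are printed 5′ to 3′ in the direction of the gene. They were chr11:59306680-59306929 on the plus strand for Wnt9a, chr1:74771642-74771891 on the plus strand for Wnt6, chr7:98834862-98835111 on the plus strand for 1 of 2 Wnt11 windows, and chr5:135251048-135251297 on the minus strand for Fzd9. Capitals mark CAGCTG, an E-box of the kind bound by myogenic factors, and CTTTGA, a core of TCF/LEF sites, which reads TCAAAG on the other strand.
Wnt9a: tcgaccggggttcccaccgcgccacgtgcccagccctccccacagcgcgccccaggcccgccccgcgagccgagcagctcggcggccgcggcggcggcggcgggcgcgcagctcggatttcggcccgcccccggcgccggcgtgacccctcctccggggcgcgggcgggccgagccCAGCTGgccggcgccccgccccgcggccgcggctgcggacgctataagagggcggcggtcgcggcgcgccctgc
Wnt6: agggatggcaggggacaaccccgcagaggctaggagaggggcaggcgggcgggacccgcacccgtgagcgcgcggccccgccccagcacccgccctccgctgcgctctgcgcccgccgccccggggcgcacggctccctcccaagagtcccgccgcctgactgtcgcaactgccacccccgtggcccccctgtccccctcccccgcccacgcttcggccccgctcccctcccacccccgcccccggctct
Wnt11: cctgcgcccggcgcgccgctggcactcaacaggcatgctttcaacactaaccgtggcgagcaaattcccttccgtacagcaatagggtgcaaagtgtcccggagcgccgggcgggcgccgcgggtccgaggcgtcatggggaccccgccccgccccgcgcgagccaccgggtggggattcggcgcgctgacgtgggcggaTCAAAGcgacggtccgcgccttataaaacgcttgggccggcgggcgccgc
Fzd9: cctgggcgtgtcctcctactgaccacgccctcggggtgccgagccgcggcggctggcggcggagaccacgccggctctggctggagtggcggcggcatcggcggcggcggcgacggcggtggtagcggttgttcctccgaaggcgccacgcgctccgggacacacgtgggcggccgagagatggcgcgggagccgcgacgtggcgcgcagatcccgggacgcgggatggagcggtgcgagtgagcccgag

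CAGCTG is its own reverse complement, CTTTGA was sought on both strands, and their letters do not allow the motifs to overlap. CAGCTG was present in 2 of the 28 windows (7.14%), those of Wnt9a and Fzd10, and in 13% of all 32851 windows of this length. CTTTGA was present in 4 windows (14.3%), 1 each of Dkk1, Fzd1, Wnt11 and Wnt5b, against 13.8% of all windows. The windows of the set were rich in CpG dinucleotides, with a median of 22 against 6 over all windows and 10 over the 21263 windows of protein-coding genes. Those printed held 48 (Wnt9a), 28 (Wnt6), 37 (Wnt11) and 42 (Fzd9). Neither motif was found in the windows of Wnt4 and Fzd7, which also rose. The second Wnt11 window, 98838595 to 98838844 on chromosome 7, held neither motif and 16 CpG. A match is a string of letters and no measure of binding. Positions of probes below are on build mm9, as in the files, and are not to be read against these windows.

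The set, like all genes tested, had its largest shares of calls at the ends of the series. Between stem cells and passage 0 myoblasts 9 of 26 tested genes rose (34.6%) and 8 fell (30.8%), where 17.5% of all 22407 genes tested rose and 19.8% fell. Between day 4 myotubes and quadriceps 7 of 23 rose (30.4%) and 5 fell (21.7%), against 14.7% and 16.3% of 18553 genes. Between proliferating myoblasts and day 4 myotubes 7 of 19 rose (36.8%) and 1 fell (5.26%), against 14.4% and 10.2% of 17425 genes. Over all comparisons the set gave 43 calls. In 23 of these the gene entered the test only through the group where it was higher, so a call in that direction was likely. Ligands, receptors and antagonists were all among these calls. The shares are therefore not read as a measure of how strongly the set changed.

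Single steps of the culture gave few calls. At day 1 against proliferating myoblasts 3 of 21 rose and 1 fell, with 5.9% and 3.25% of 19126 genes as the background. Proliferating against passage 0 myoblasts gave 0 higher and 1 lower of 20 (background 0.393% and 0.771%), with 5 genes at an unadjusted p under 0.05 in limma. Over all genes that step gave 80 higher and 157 lower calls, which were 172 and 163 with normexp, another way of correcting the scanner signals for background, and 132 and 383 with quantile normalization. At day 2 against day 1 limma called 0 of 20 (background 0.599% higher and 2.17% lower), with 4 at an unadjusted p under 0.05, and at day 4 against day 2 it called 1 higher and 0 lower of 17 (0.248% and 0.062%), with 2. The median log2 change of the tested genes of the set was -0.09, -0.35, 0.16, 0.16, -0.16, 0.26 and 0.22 in passage 0 against stem cells, proliferating against passage 0, day 1 against proliferating, day 2 against day 1, day 4 against day 2, day 4 against proliferating and quadriceps against day 4. Over all genes tested it was -0.26, 0.14, -0.04, 0.13, -0.06, 0.03 and -0.06 in the same order. With quantile normalization the first median over all genes was -0.08 and the second -0.05, a shift of the whole scale that also applies to changes of single genes in both. Several of these comparisons share samples, and their counts are not independent. In all 43 calls the samples of the 2 groups did not overlap. The limits on p and fold favour this in any called gene, so it is not read as a trait of the set. In 23 of the 43 calls at least 1 sample was below background, and all 23 changes were smaller with normexp and with the authors' values. Among these, all 10 lower bounds stood above the fold measured with one or both of those signals, so each bound holds for the processed signal alone.

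**Figure D1:**
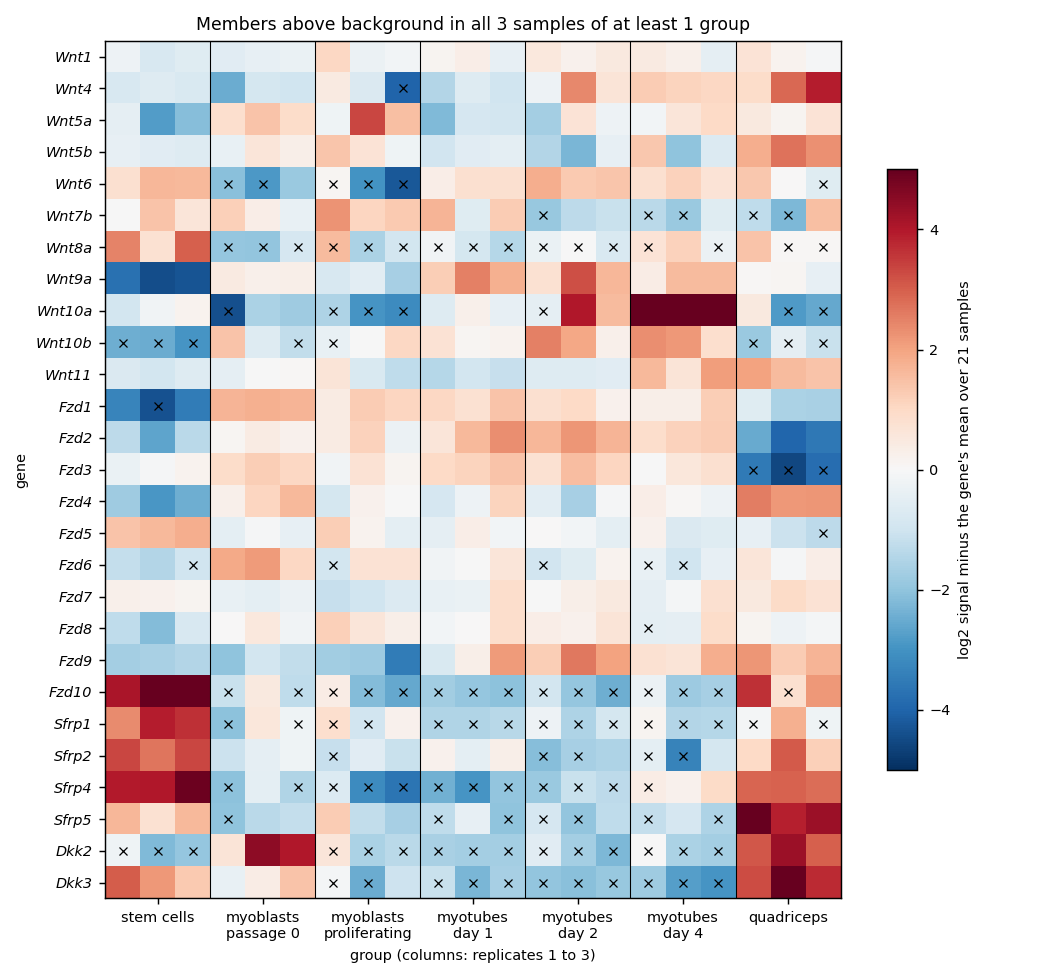
Levels of the 27 genes that were above background in all 3 samples of at least 1 group, as log2 signal minus the gene's mean over 21 samples. Columns are samples in 7 groups of 3, rows are genes, and a cross marks a sample in which the gene was not well above background. Wnt10a is highest in the 3 day 4 samples, Sfrp1, Sfrp2 and Sfrp4 are high in the 3 stem cell samples, and Dkk3 and Sfrp5 are highest in quadriceps.

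Among the ligands, Wnt10a made the largest upward change of the set in myotubes. Wnt10a, which is known to signal through beta-catenin and is best known from teeth and skin, has its probe on chromosome 1 at 74850633 to 74850692. In proliferating myoblasts it stood at -4.14, -5.57 and -5.75, above background in none. On day 1 it was at -3.27, -2.35 and -3.01, and on day 2 at -3.05, 1.41 and -1.02, with replicate 1 of day 2 below background. On day 4 it reached 2.41, 4.25 and 2.36, so all 3 samples lay above every sample of every other group. Day 4 was at least 107-fold higher than proliferating myoblasts (means 3.01 ± 1.08 and -5.15 ± 0.88, SD, n = 3; adjusted p = 2e-05), and the difference was 6.55, 9.82 and 8.11 within culture numbers 21, 26 and 28. It was 7.54 without day 4 replicate 2, and 5.24 with normexp and 5.57 with the authors' values. The step from day 2 to day 4 was 3.89 ± 1.03 (SE) without passing the test (adjusted p = 0.12). It did pass with normexp background correction (3.30, adjusted p = 0.014) and with the authors' values (3.34, adjusted p = 0.0074), within a range of 0.0074 to 0.48 over the alternatives. In quadriceps Wnt10a was at -2.13, -5.46 and -5.15, above background in replicate 1 only, and so fell 153-fold from day 4 (log2 change -7.26 ± 1.03, SE, adjusted p = 2.6e-05). That change was -6.63 without day 4 replicate 2, -8.32 and -6.65 without quadriceps replicate 1 and 2, and -4.84 with normexp. NOD/ShiLtj muscle read -3.71. Stem cells stood at -3.52, -2.77 and -2.42 and passage 0 myoblasts at -7.00, -4.20 and -4.40, which did not pass (adjusted p = 0.087; 0.045 with those 2 groups alone, 0.46 at most).

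Wnt6 lies next to Wnt10a on chromosome 1, and its probe is at 74831461 to 74831520. It is known from epithelia, where it takes part in the patterning of the somites that give rise to muscle. Stem cells were at -2.01, -1.16 and -1.19. Passage 0 myoblasts were at -4.92, -5.68 and -4.70, with 1 sample above background, and proliferating myoblasts at -2.73, -5.82 and -7.08, with none. Myotubes were above background throughout, at -2.49, -2.04 and -2.03 on day 1, -1.02, -1.53 and -1.43 on day 2 and -2.01, -1.69 and -2.16 on day 4. The gene thus fell 12.5-fold from stem cells to passage 0 myoblasts (adjusted p = 0.00067) and rose at least 2.94-fold by day 1 (means -2.18 ± 0.26 and -5.21 ± 2.24, adjusted p = 0.015) and at least 3.44-fold by day 4 (-1.96 ± 0.24, adjusted p = 0.0032). The difference at day 1 was 0.24, 3.78 and 5.05 and that at day 4 0.72, 4.13 and 4.92 within culture numbers 21, 26 and 28. Without proliferating replicate 1 they were 4.27 and 4.49, and without replicate 3 2.09 and 2.32. The call at day 1 was lost without proliferating replicate 2 (adjusted p = 0.051) or 3 (0.067), without day 1 replicate 3 (0.062) and with normexp (0.26), in a range from 6.9e-05 to 0.36. The fall from stem cells was -1.93 with normexp and -1.44 with the authors' values. The call at day 4 was lost with normexp (0.053) and with the 2 groups alone (0.13). In quadriceps it read -1.47, -2.79 and -3.43, overlapping day 4 (adjusted p = 0.58). Wnt6 and Wnt10a thus both rose between proliferating myoblasts and day 4, while in quadriceps Wnt10a alone of the pair fell.

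Wnt9a, a ligand known from joints and limb cartilage, was above background in all 21 samples with its probe on chromosome 11 at 59146953 to 59147012. Its level was -1.71, -2.41 and -2.31 in stem cells, 2.45, 2.28 and 2.29 in passage 0 myoblasts and 1.19, 1.49 and 0.36 in proliferating myoblasts. It was 3.23, 4.52 and 3.79 on day 1, 2.77, 5.23 and 3.67 on day 2 and 2.37, 3.58 and 3.57 on day 4, and 2.05, 2.12 and 1.61 in quadriceps. Stem cells were lowest without overlap, and every myotube sample lay above every proliferating one. The gene rose 22.3-fold from stem cells to passage 0 myoblasts (log2 change 4.48 ± 0.53, SE, adjusted p = 2e-06), 7.13-fold from proliferating myoblasts to day 1 (2.83 ± 0.53, adjusted p = 0.0022) and was 4.47-fold higher at day 4 than in proliferating myoblasts (adjusted p = 0.0049). Both calls against proliferating myoblasts were lost with the 2 groups alone (0.12 at day 1 and 0.093 at day 4), the highest of their alternatives, where the lowest were 0.00042 and 0.0027. Quadriceps did not pass against day 4 (-1.25 ± 0.53, adjusted p = 0.076), and did so without day 4 replicate 1 (-1.65, adjusted p = 0.037) and with the NOD/ShiLtj array added (-1.29, adjusted p = 0.04), of a range from 0.037 to 0.21. Its neighbour Wnt3a was above background in no sample.

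Wnt11 and Wnt4, ligands known for signalling without beta-catenin in many tissues, were higher late in culture. Wnt11 stood between -3.25 and -3.00 in stem cells, at -2.80, -2.37 and -2.28 in passage 0 myoblasts and at -1.71, -3.12 and -3.62 in proliferating ones. It was at -3.77, -3.25 and -3.49 on day 1 and -2.99, -2.99 and -2.91 on day 2. Day 4 read -0.73, -1.70 and -0.26, next to -0.33, -0.77 and -0.91 in quadriceps, from which it did not differ by the test (0.22 ± 0.43, adjusted p = 0.74). It was 3.79-fold higher at day 4 than in proliferating myoblasts (1.92 ± 0.43, SE, adjusted p = 0.0025), by 0.98, 1.42 and 3.36 within culture numbers 21, 26 and 28 and by 0.01, 2.89 and 2.86 on slides 1 to 3, where the samples set against each other have different culture numbers. With the 2 groups alone that call was lost (0.18, in a range from 6.8e-05). It was also 4.2-fold higher than at day 2 (2.07 ± 0.43, adjusted p = 0.045), the only call of the set in that step. Leaving out any sample of day 2, or replicate 1 or 3 of day 4, ended that call (adjusted p 0.12 to 0.19), as did the replicate block (0.052) and the 2 groups alone (0.3), and over all alternatives the adjusted p ran from 0.0051 to 0.3.

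Wnt4 showed a wide spread in proliferating myoblasts, at -1.13, -2.33 and -5.61, the last below background. Stem cells lay between -2.38 and -2.24, passage 0 myoblasts read -4.06, -2.46 and -2.57, day 1 -3.07, -2.24 and -2.59, and day 2 -1.84, 0.80 and -0.93. Day 4 was narrow at -0.33, -0.47 and -0.57, and quadriceps wide at -0.69, 1.28 and 2.32. The rise from proliferating myoblasts to day 4 was 5.91-fold (2.56 ± 0.92, SE, adjusted p = 0.047). It was 0.80, 1.86 and 5.04 within culture numbers 21, 26 and 28, 0.66, 5.28 and 1.76 on slides 1 to 3, 1.27 without proliferating replicate 3 (adjusted p = 0.26) and 3.51 without proliferating replicate 1. The call was also lost without proliferating replicate 2 (0.051), without day 4 replicate 1 (0.11), 2 (0.1) or 3 (0.081), and with the slide as a block (0.057), in a range from 0.0075 to 0.26. Normexp (1.46, adjusted p = 0.075), the authors' values (1.49, 0.053), no filter (0.084) and the 2 groups alone (0.25) ended it too. In all it was lost under 10 of 14 alternatives. Quadriceps and day 4 overlapped (1.43 ± 0.92, adjusted p = 0.25).

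Wnt5a and Wnt5b, close relatives that mostly signal without beta-catenin, were above background in all 21 samples. Wnt5a was at -1.03, -3.36 and -2.69 in stem cells and at 0.27, 0.85 and 0.35 in passage 0 myoblasts, a 7.19-fold rise (2.85 ± 0.77, SE, adjusted p = 0.006) that was 3.51 without stem cell replicate 1. Proliferating myoblasts were spread from -0.80 over 0.93 to 2.77, and day 1 myotubes were lower at -2.78, -1.40 and -1.49 (7.26-fold, adjusted p = 0.025). Later levels were -2.26, 0.11 and -0.83 on day 2, -0.71, 0.04 and 0.41 on day 4 and -0.07, -0.45 and 0.13 in quadriceps, so day 4 did not differ from proliferating myoblasts by the test (-1.06 ± 0.77, adjusted p = 0.36). The fall at day 1 was lost without proliferating replicate 2, the highest sample (-1.96, adjusted p = 0.11), or 3 (0.052), and without day 1 replicate 1 (0.11) or 3 (0.058), and was -3.74 without proliferating replicate 1, in a range from 0.0029 to 0.33. Wnt5b stood at -1.22, -1.37 and -1.46 in stem cells and at -1.17, -0.20 and -0.51 in passage 0 myoblasts. Day 4 was widely spread at 0.53, -2.82 and -1.50, and quadriceps was above it without overlap at 1.03, 1.92 and 1.47 (6.66-fold, 2.74 ± 0.65, adjusted p = 0.003). That difference was 3.63 without day 4 replicate 1 and 1.96 without replicate 2. Without day 4 replicate 1 the gene was also lower at day 4 than in proliferating myoblasts (-1.97, adjusted p = 0.019), a difference that otherwise did not pass (adjusted p = 0.26, and 0.8 at most over the alternatives).

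Wnt7b fell during culture and Wnt10b between day 4 and quadriceps. Wnt7b, known from lung and skin, was at -0.23, -1.41 and -1.15 in proliferating myoblasts and at -0.79, -3.08 and -1.20 on day 1. On day 2 it read -4.39, -3.79 and -3.60 and on day 4 -3.83, -4.33 and -3.10, with 1 day 4 sample above background. It was the only gene of the set to fall between proliferating myoblasts and day 4 (7.06-fold, -2.82 ± 0.78, SE, adjusted p = 0.011), a call that did not hold without day 4 replicate 2 (adjusted p = 0.052, range 0.0099 to 0.052). The fall was 2.31-fold with normexp and 2.66-fold with the authors' values. In quadriceps only replicate 3 was above background, at -0.97. Wnt10b, which is known to hold precursor cells back from the fat cell fate, was below background in all stem cell samples. It was at -1.97, -4.06 and -4.64 in passage 0 and -3.78, -3.41 and -2.37 in proliferating myoblasts, -2.70, -3.30 and -3.24 on day 1, -0.88, -1.46 and -3.15 on day 2 and -1.09, -1.25 and -2.57 on day 4. Proliferating and day 4 samples overlapped (1.55 ± 0.67, adjusted p = 0.097), though 2 alternatives passed, the slide as a block (0.042) and without day 4 replicate 3 (0.048), of a range up to 0.6. In quadriceps it was above background in none, at -5.25, -3.84 and -4.51, at least 3.78-fold below day 4 (adjusted p = 0.0023, lost with normexp at 0.14).

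**Figure D2:**
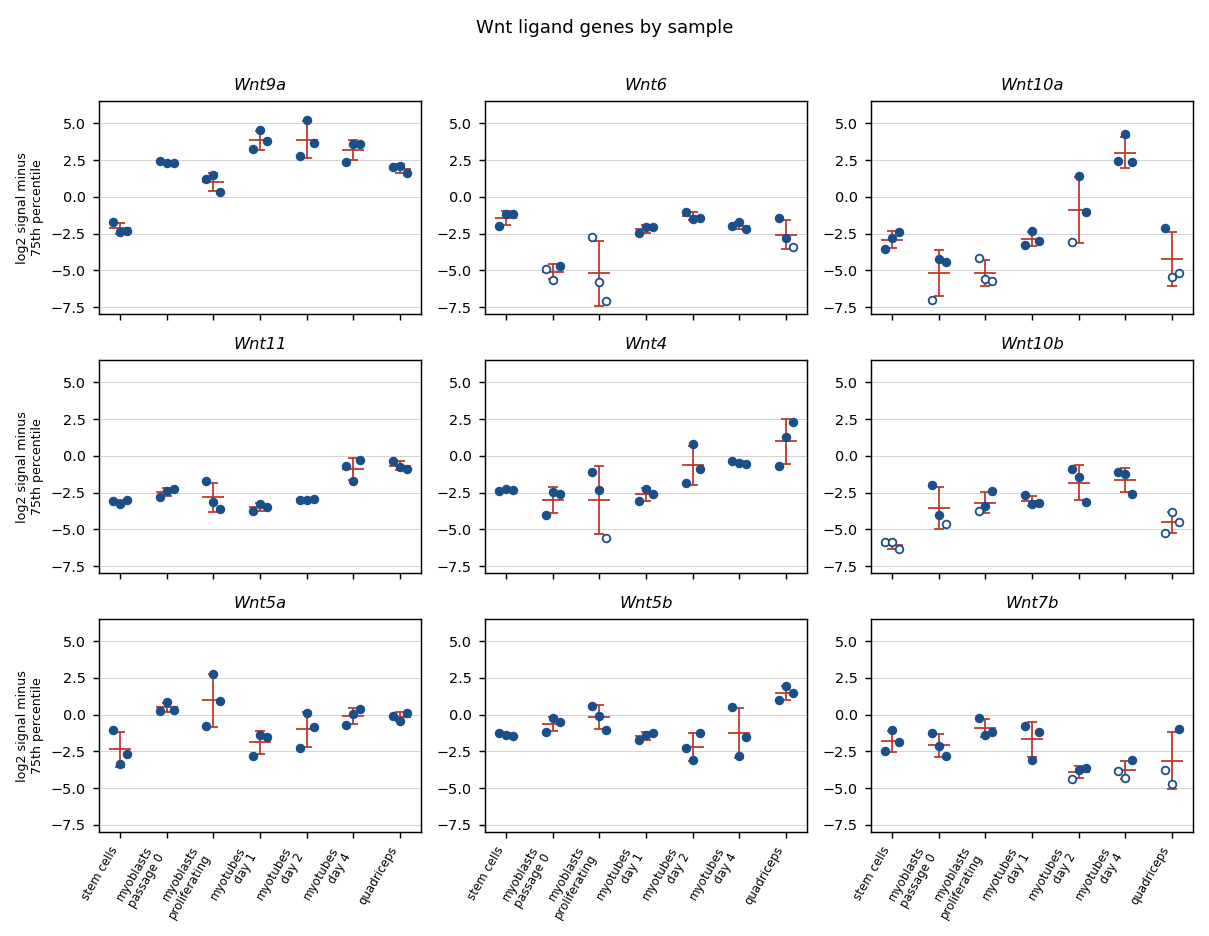
Levels of 9 Wnt ligand genes in each sample as log2 signal minus the array's 75th percentile. Points are samples, filled where well above background and open where not, and red bars give the mean and SD of each group (n = 3). Wnt10a lies at -4.14 or lower in proliferating myoblasts, between 2.36 and 4.25 on day 4 and at -2.13 or lower in quadriceps.

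The remaining ligands gave 1 call. Wnt8a, a ligand of the early embryo, was above background in stem cells at -2.58, -4.29 and -2.08 and in no passage 0 sample (at least 3.72-fold lower, adjusted p = 0.00048; the log2 change was -4.30 without stem cell replicate 2 and -0.88 with the authors' values, under the fold asked for). Over the later groups it was above background in 2 samples. Wnt1 passed the background in all 21 samples on its brighter probe, with group means between -0.29 and 0.66, and did not pass the test in any comparison. Its second probe, upstream on chromosome 15 at 98623276 to 98623335 against 98624201 to 98624260, was above background in no sample, so its level rests on 1 of 2 probes that disagree. Wnt16 was above background in 9 samples, Wnt9b in 6, and Wnt7a and Wnt8b in 2 each. For Wnt7a and Wnt9b the highest value was that of the dim array of proliferating replicate 1, at -1.36 and -0.89. Wnt2, Wnt2b, Wnt3 and Wnt3a were above background in none.

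Among the receptors, 6 of 10 Frizzled genes rose from stem cells to passage 0 myoblasts, 2 fell and 2 did not pass, where 17.5% of all genes tested rose and 19.8% fell. Fzd1, whose product can signal through beta-catenin, made the largest rise of the set there. Its probe lies on chromosome 5 at 4754003 to 4754062, and it read -3.55, -4.61 and -3.75 in stem cells, the second below background, and 1.47, 1.54 and 1.46 in passage 0 myoblasts. The groups were 44-fold apart (5.46 ± 0.39, SE, adjusted p = 6e-09), and 13.1-fold with the authors' values. In culture Fzd1 stayed between -0.03 and 1.19 from proliferating myoblasts to day 4 with no call, and quadriceps lay lower at -0.86, -1.81 and -1.84 (3.66-fold, adjusted p = 0.0011). Fzd4, a receptor that also binds norrin and is known from blood vessels, was at -0.50, -1.65 and -1.17 in stem cells and 1.51, 2.35 and 2.87 in passage 0 myoblasts (10.2-fold, adjusted p = 4.7e-05). Fzd6 rose 7.41-fold (adjusted p = 4.5e-05) from a group mean of -4.03 ± 0.23 to -1.14 ± 0.57. That rise was 3.23-fold with normexp and 2.93-fold with the authors' values. Fzd6 was lower in proliferating myoblasts, at -3.75, -2.09 and -2.11, without passing (-1.51 ± 0.45, adjusted p = 0.12). It passed with the authors' values (0.039) and without proliferating replicate 3 (0.05 when rounded), in a range up to 0.73.

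Fzd2, with its probe on chromosome 11 at 102467613 to 102467672, was at 1.71, 0.39 and 1.67 in stem cells, 3.12, 3.44 and 3.24 in passage 0 and 3.43, 4.18 and 2.74 in proliferating myoblasts. The rise from stem cells was 4.03-fold (2.01 ± 0.49, SE, adjusted p = 0.0028). Myotubes were at 3.64, 4.67 and 5.37 on day 1, 4.69, 5.26 and 4.75 on day 2 and 3.93, 4.19 and 4.30 on day 4, and no step in culture passed. Quadriceps stood far below all myoblasts and myotubes at 0.50, -0.91 and -0.53, 21.9-fold under day 4 (-4.45 ± 0.49, adjusted p = 1.7e-06). Its replicate 1 lay above stem cell replicate 2, at 0.39. A dimmer probe for the gene gave means of -2.09 on day 4 and -4.67 in quadriceps, in the same direction.

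Fzd3, best known from axon guidance, gave a like picture. It read -1.06, -0.76 and -0.54 in stem cells and 0.21, 0.52 and 0.31 in passage 0 myoblasts (2.2-fold, adjusted p = 0.014). That call was lost without stem cell replicate 1 (adjusted p = 0.058) or passage 0 replicate 2 (0.055), and with the authors' values the fold stayed under 2 (log2 change 0.98, adjusted p = 0.0044). It stayed between -0.90 and 0.85 in culture. At day 4 it read -0.73, -0.14 and 0.09, and in quadriceps it was above background in no sample, at -4.24, -5.25 and -4.53, at least 9.78-fold lower (adjusted p = 4.4e-08). NOD/ShiLtj muscle was below background too.

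Fzd9 and, by a smaller margin, Fzd7 were the receptors that rose by day 4. Fzd9 is known from neuromuscular junctions, where it opposes the clustering of acetylcholine receptors, and its probe is on chromosome 5 at 135724815 to 135724874. Stem cells read 0.15, 0.23 and 0.38, passage 0 myoblasts -0.19, 0.94 and 0.63 and proliferating myoblasts 0.09, 0.04 and -1.66. Day 1 read 1.09, 2.12 and 3.96, day 2 3.08, 4.49 and 3.85, and day 4 2.61, 2.50 and 3.66, with quadriceps at 4.03, 3.11 and 3.55. No myotube or quadriceps sample overlapped the myoblasts. The gene was 7.46-fold higher at day 1 (2.90 ± 0.63, SE, adjusted p = 0.0067) and 10.8-fold higher at day 4 than in proliferating myoblasts (3.43 ± 0.63, adjusted p = 0.00053), the latter by 2.52, 2.46 and 5.32 within culture numbers 21, 26 and 28. Quadriceps and day 4 overlapped (0.64 ± 0.63, adjusted p = 0.48). The rise at day 1 was 3.55 without day 1 replicate 1 and 2.11 without replicate 3, and was lost with the 2 groups alone (0.27, in a range from 0.0027). Without day 1 replicate 3 day 2 was higher than day 1 (2.20, adjusted p = 0.049 against 0.33 with it, and 0.9 at most).

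Fzd7, the receptor through which Wnt7a is known to act on satellite cells, rose by little more than the fold asked for. It read -1.29, -1.14 and -0.82 in proliferating myoblasts and -0.59, -0.25 and 0.66 at day 4 (2.03-fold, 1.02 ± 0.36, SE, adjusted p = 0.045), a difference of 0.70, 0.89 and 1.48 within culture numbers 21, 26 and 28. The call was lost under 9 of 15 alternatives, among them 4 that left out a sample, namely proliferating replicate 1 or 2 (0.093 each) and day 4 replicate 2 (0.07) or 3 (0.21), in a range from 0.017 to 0.4. Its other probe read -3.21 ± 0.88 and -2.31 ± 0.57. Stem cells read 0.12, 0.08 and -0.03, passage 0 myoblasts -0.52, -0.64 and -0.46 and quadriceps 0.33, 0.79 and 0.58. Fzd8 was higher in passage 0 myoblasts than in stem cells, at -2.02, -1.53 and -2.20 against -3.32, -4.19 and -2.83 (2.89-fold, adjusted p = 0.0079). It lost that call without stem cell replicate 2 (0.059), with normexp (0.065) and, at a log2 change of 0.80, with the authors' values, in a range from 0.0011 to 0.065, and later groups gave none.

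Fzd10 and Fzd5 were the receptors that fell on leaving the stem cells. Fzd10, a gene of the early embryo and nervous system, was at -0.17, 0.79 and 1.07 in stem cells and above background in 1 of 3 passage 0 samples, at -5.36, -3.75 and -5.50 (43.3-fold, -5.44 ± 0.77, SE, adjusted p = 1.8e-05). The change was -3.39 with normexp and -2.84 with the authors' values. It was above background in no sample of proliferating myoblasts or myotubes. In quadriceps it read -0.61, -3.46 and -2.08, above background in replicates 1 and 3, and NOD/ShiLtj muscle read -1.78. With 2 of 3 samples above background it was not tested there. Fzd5 fell from -0.96, -0.79 and -0.58 to -2.90, -2.47 and -2.81 (3.86-fold, adjusted p = 0.00076), and did not pass later. Its other probe read -0.48 ± 0.37 and -2.06 ± 0.28 (SD, n = 3) in these groups. With the mean of both probes it also fell between proliferating myoblasts and day 4 (-1.27, adjusted p = 0.026, in a range up to 0.69).

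Of the 9 receptors tested in quadriceps Fzd4 rose, at 3.82, 3.42 and 3.48 against 1.58, 1.32 and 0.99 on day 4 (4.84-fold, 2.27 ± 0.52, SE, adjusted p = 0.0023), Fzd1, Fzd2 and Fzd3 fell, and 5 did not pass. That is 11.1% higher and 33.3% lower, where 14.7% of all genes tested rose and 16.3% fell. NOD/ShiLtj muscle read 3.76 for Fzd4. Fzd10, described above, was not tested. Quadriceps is whole tissue, and markers of other cell types differed with it. All 8 endothelial markers were above background there in each sample, with the log2 of their summed level from 4.25 to 5.00, against 2 of 8 at day 4 (2.34 to 4.05). The myoblast markers moved the other way, with 5 of 5 tested lower in quadriceps (median log2 change -3.34) and a summed level of 3.84 to 4.99 against 9.27 to 9.57 at day 4. The part of either list in the receptor results, or in the fall of Wnt10a, was not tested. In such samples fewer cells of a type and less RNA per cell cannot be told apart.

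**Figure D3:**
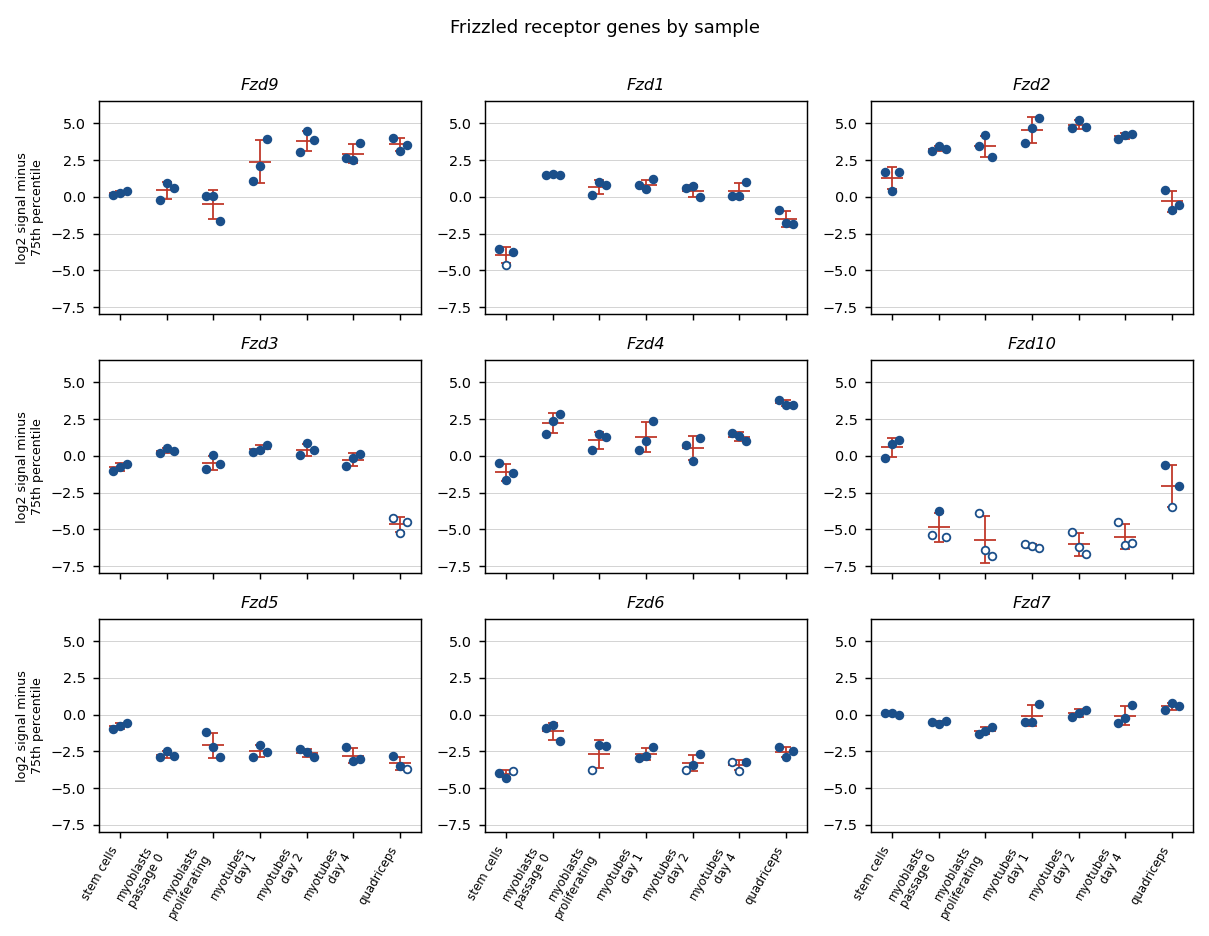
Levels of 9 Frizzled receptor genes in each sample as log2 signal minus the array's 75th percentile. Points are samples, filled where well above background and open where not, and red bars give the mean and SD of each group (n = 3). Fzd9 is at 1.09 or more in every myotube and quadriceps sample, and Fzd2 and Fzd3 have their lowest group means in quadriceps.

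Among the 8 secreted antagonists all 4 Sfrp genes fell from stem cells to passage 0 myoblasts, where 19.8% of all genes tested fell. Sfrp1, Sfrp4 and Sfrp5 entered that test through the stem cells alone. Between day 4 and quadriceps Sfrp2, Sfrp4, Sfrp5, Dkk2 and Dkk3 rose, where 14.7% of all genes tested rose. All of these entered the test through quadriceps alone, and Sfrp1 was not tested there. Sfrp4, with its probe on chromosome 13 at 19724488 to 19724547, was at 0.55, 0.58 and 1.49 in stem cells and at -5.46, -3.93 and -4.93 in passage 0 myoblasts, where 1 sample was above background (50.1-fold, -5.65 ± 0.59, SE, adjusted p = 4.9e-07, and -3.28 with the authors' values). It was above background in no sample from proliferating myoblasts to day 2. On day 4 it was at -3.04, -3.20 and -2.45, above background in 2, and in quadriceps at -0.52, -0.46 and -0.63, 5.15-fold above day 4 (2.36 ± 0.59, adjusted p = 0.0043). This last difference was 2.62-fold with normexp and 2.87-fold with the authors' values.

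Sfrp2, expressed widely in embryonic mesenchyme, was at 0.42, -0.26 and 0.44 in stem cells and fell 13-fold to -4.00, -3.37 and -3.13 in passage 0 myoblasts (adjusted p = 0.0001). It was at -4.06, -3.50 and -4.02 in proliferating myoblasts, -2.70, -3.39 and -2.64 on day 1, -5.05, -4.57 and -4.46 on day 2 and -3.39, -6.26 and -3.80 on day 4. No step in culture passed. Quadriceps stood at -1.93, 0.14 and -1.73, 9.9-fold above day 4 (3.31 ± 0.62, SE, adjusted p = 0.00042). The difference was 2.42 without day 4 replicate 2, 2.65 without quadriceps replicate 2 and 1.44 with normexp, and NOD/ShiLtj muscle was lower at -3.08.

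Sfrp5, known as a product of fat tissue, was at -1.06, -1.96 and -1.10 in stem cells and fell 7.23-fold to -4.73, -4.04 and -3.91 in passage 0 myoblasts (adjusted p = 0.0013). Its quadriceps levels, 2.64, 1.19 and 1.58, were above those of every other group. They were 51.6-fold above day 4, at -3.90, -3.53 and -4.23 with 1 sample above background (5.69 ± 0.63, SE, adjusted p = 1.8e-06, and 3.67 with normexp). NOD/ShiLtj muscle read 1.33. Sfrp1 fell 14.8-fold from -2.36, -0.79 and -1.09 to -6.77, -4.15 and -4.95, of which 1 was above background (adjusted p = 0.0002). The change of -3.88 was -3.14 without passage 0 replicate 1, -1.82 with normexp and -1.34 with the authors' values. In quadriceps 1 sample was above background.

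On leaving the stem cells Dkk2 rose, unlike the Sfrp genes, while Dkk3 was lower, as they were, without passing the test. Dkk2, which can inhibit or stimulate Lrp6, was above background in 2 groups only. Its probe is on chromosome 3 at 131842357 to 131842416. Passage 0 myoblasts read -3.99, -0.18 and -0.62 and quadriceps -1.51, -0.35 and -1.63, while all other samples lay between -6.86 and -4.04. It was at least 9.86-fold higher in passage 0 myoblasts than in stem cells (adjusted p = 0.00036), at least 4.41-fold lower in proliferating than in passage 0 myoblasts (means -5.41 ± 1.19 and -1.60 ± 2.08, adjusted p = 0.037) and at least 6.18-fold higher in quadriceps than at day 4 (adjusted p = 0.00042). The rise from stem cells, 4.49 on the log2 scale, was 3.78 without passage 0 replicate 2, 5.68 without replicate 1, 5.11 without stem cell replicate 1 and 1.80 with the authors' values. The fall on passaging, -3.81, was -5.01 without passage 0 replicate 1, -3.11 without replicate 2 and -4.50 without proliferating replicate 1. It was the only call of the set in that comparison, and it was lost without passage 0 replicate 2 (adjusted p = 0.21) or 3 (0.15), without proliferating replicate 2 (0.083) or 3 (0.05 when rounded), with normexp (0.18) and with the 2 groups alone (0.73), in a range from 0.0011 to 0.73. Markers of fibroblasts moved with it, with 8 of 9 above background in every passage 0 sample (summed level 4.91 to 6.16) and 5 of 9 in proliferating myoblasts (3.71 to 5.13), and Lum in no proliferating sample. Leukocyte markers were above background in all samples for 6 of 6 at passage 0 (4.57 to 5.28) and 3 of 6 after passaging (4.57 to 6.41). The proliferating group holds the dim array, and the set itself had 19 genes above background in all samples at passage 0 and 15 after passaging. By the test 3 of 8 fibroblast and 1 of 6 leukocyte markers fell, against 0.771% of all genes. The part of these markers in the result was not tested.

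Dkk3, a divergent family member whose action on Wnt signals is less settled, has its probe on chromosome 7 at 119259556 to 119259615. It was at 0.34, -0.55 and -1.40 in stem cells and -3.06, -2.34 and -1.26 in passage 0 myoblasts (-1.68 ± 0.83, SE, adjusted p = 0.12). It was above background in 1 of 3 proliferating samples, at -2.79, -5.20 and -3.72, and in no myotube sample. Quadriceps read 0.54, 4.49 and 1.03, at least 56.1-fold above day 4 (means 2.02 ± 2.15 and -5.20 ± 0.64, adjusted p = 2.7e-06). The log2 change of 7.22 was 5.99 without quadriceps replicate 2, the highest sample, and 7.96 without replicate 1. It was 4.18 with normexp, which is 18.1-fold. NOD/ShiLtj muscle read 3.16. Dkk1 was above background in 1 of 21 samples, the stem cell line E14tg2, whose repeat arrays read -2.41 and -2.46, against -4.75 and -5.37 in the other lines. Dkk4 was above background in 1 sample, day 1 replicate 1 at -3.27.

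Sfrp2, Sfrp4, Sfrp5, Dkk2 and Dkk3 thus all rose between day 4 myotubes and quadriceps, and each call held under every alternative that gave a value. None of these genes was above background in all 3 day 4 samples, so each entered the test through quadriceps, where a rise was the likely outcome. Asking for signal in both groups gave no value for any of them. Markers of several other cell types moved with these genes, while most leukocyte markers did not. Of 9 fibroblast markers 9 were above background in every quadriceps sample (summed level 8.22 to 8.95) and 4 at day 4 (3.38 to 4.15), where Pdgfra, Lum and Dpt were above background in none. Of 5 adipocyte markers 4 were above background in quadriceps (7.14 to 9.53) and 0 at day 4 (-2.72 to -1.61), and of 5 Schwann cell markers 5 and 0. Of 6 smooth muscle and pericyte markers 6 were so in quadriceps (4.12 to 4.99) and 2 at day 4 (2.47 to 3.28). Of 6 leukocyte markers 4 were so in quadriceps (5.25 to 6.08) and 3 at day 4 (5.48 to 6.13), and 1 of 4 tested rose. The part of any of these lists in the result was not tested. Between stem cells and passage 0 myoblasts strain and cell type cannot be told apart, since the stem cell lines were of 129 substrains.

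**Figure D4:**
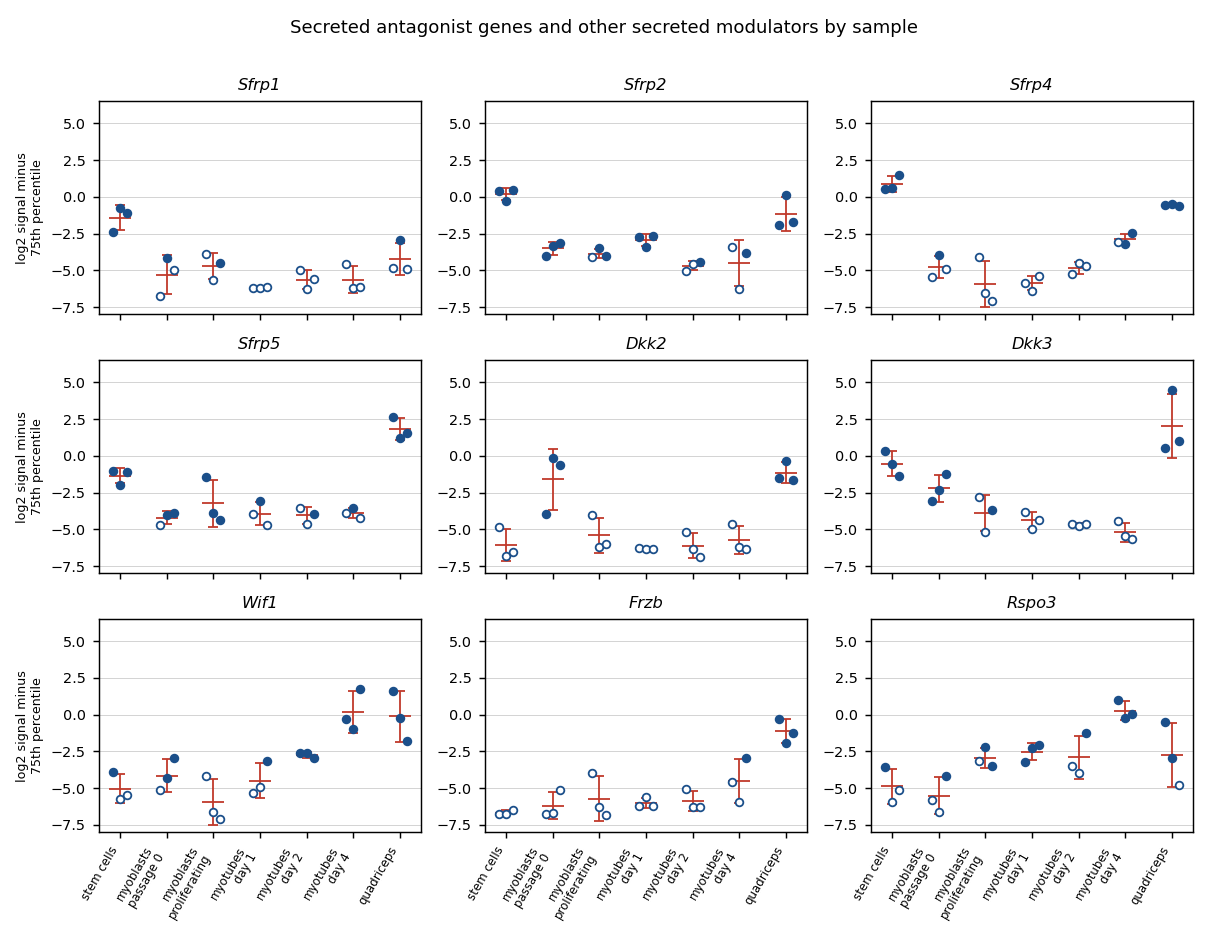
Levels of 6 Sfrp and Dkk genes and of the secreted modulators Wif1, Frzb and Rspo3 in each sample as log2 signal minus the array's 75th percentile. Points are samples, filled where well above background and open where not, and red bars give the mean and SD of each group (n = 3). The Sfrp genes are above background in all 3 stem cell samples, Sfrp4 is open in every sample from proliferating myoblasts to day 2, and Dkk3 and Sfrp5 reach 0.54 or more in all 3 quadriceps samples.

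A list of 58 further genes of the pathway, all on the array, was read beside the set. From stem cells to passage 0 myoblasts 12 of 48 tested rose (25%) and 8 fell (16.7%), against 17.5% and 19.8% of all genes tested. The largest rise was that of Wls, the carrier that brings Wnt ligands to the cell surface, from -1.28, -2.68 and -1.64 to 3.44, 2.93 and 3.23 (33.5-fold, adjusted p = 7.2e-08). The largest fall was that of Celsr1, a planar polarity cadherin, from 1.47, 1.69 and 1.48, with all passage 0 samples below background (at least 86.1-fold lower, adjusted p = 5.8e-09). It was 25.8-fold with normexp and 17.6-fold with the authors' values. For the further genes named here, called changes with a sample below background were smaller with both of these signals. Each of their bounds likewise holds for the processed signal alone. Lgr5, a receptor for R-spondins, was below background in all stem cell samples and stood at -2.73, -3.81 and -3.23 in passage 0 myoblasts (at least 3.12-fold, adjusted p = 0.0014), a call lost with normexp (0.11) and, with a log2 change of 0.81 and so under the fold asked for, with the authors' values (adjusted p = 0.0041), in a range from 0.00018 to 0.11. On passaging limma called 0 of 44 higher and 1 lower, with 14 at an unadjusted p under 0.05. The gene that fell was the R-spondin receptor Lgr6 (at least 4.52-fold lower, adjusted p = 0.046, and a log2 change of -2.31 that was -3.14 without proliferating replicate 1). Leaving out any sample of either group but proliferating replicate 1 ended that call (0.058 to 0.19), and over all alternatives the adjusted p ran from 2.6e-05 to 0.73.

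In myotubes the list moved in both directions. At day 1 4 of 40 rose (10%) and 2 fell (5%), against 5.9% and 3.25% of all genes, led by Celsr3, another planar polarity cadherin (8.36-fold, adjusted p = 0.0038), and by Myc, a growth regulator and common target (3.96-fold lower, adjusted p = 0.041). The fall of Myc did not hold without proliferating replicate 2 or 3 or without any sample of day 1 (0.061 to 0.14, in a range from 0.017 to 0.17 over all alternatives). At day 2 against day 1 0 of 41 rose and 2 fell, of which Apcdd1, an inhibitor that binds Wnt and Lrp5, was at least 5.12-fold lower (adjusted p = 0.0027, lost with normexp at 0.091 and with the authors' values at 0.052), and at day 4 against day 2 0 of 39 were called, with 5 at an unadjusted p under 0.05.

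At day 4 against proliferating myoblasts 8 of 38 rose and 8 fell (21.1% each), against 14.4% and 10.2% of all genes. Wif1, a secreted factor that binds Wnt ligands, was above background in no proliferating sample, at -2.59, -2.63 and -2.96 on day 2 and -0.28, -0.97 and 1.77 on day 4 (at least 15.1-fold, adjusted p = 0.00011, with a log2 change of 6.12 that was 5.32 without day 4 replicate 3 and 7.02 without proliferating replicate 1). The rise of Wif1 was 7.78-fold with normexp and 10.1-fold with the authors' values. Wif1 stood at 1.64, -0.23 and -1.78 in quadriceps, overlapping day 4 (adjusted p = 0.85). Rspo3, a ligand that strengthens Wnt signals, rose from -3.13, -2.21 and -3.52 to 1.01, -0.21 and 0.04 (9.43-fold, adjusted p = 0.016) and fell again to -0.49, -2.94 and -4.78 in quadriceps (8.1-fold, adjusted p = 0.019). The rise was lost without proliferating replicate 3 (0.055) or day 4 replicate 1 (0.071), and the fall without day 4 replicate 1 (0.077) or quadriceps replicate 2 (0.058) or 3 (0.13). Without quadriceps replicate 1 and 3 the fall was -4.14 and -1.99. The adjusted p ran in ranges from 0.00076 to 0.071 and from 0.002 to 0.13. Porcn, the enzyme that adds the lipid to Wnt ligands and is named here after its values were seen, was 7.06-fold higher at day 4 (adjusted p = 3.4e-05) and 6.1-fold lower in quadriceps than at day 4 (adjusted p = 3.2e-05). The largest fall by day 4 was that of Apcdd1, at least 9.47-fold (adjusted p = 4.9e-05), with a log2 change of -4.16 that was -3.53 without proliferating replicate 2.

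In quadriceps against day 4 2 of 41 were higher (4.88%) and 10 lower (24.4%), against 14.7% and 16.3% of all genes. Frzb, a secreted relative of the Sfrp proteins, was at -0.28, -1.91 and -1.23 against -4.60, -5.95 and -2.94 at day 4, where 1 sample was above background (10.3-fold higher, adjusted p = 0.0019; the log2 change of 3.36 was 2.63 and 4.13 without day 4 replicate 2 and 3). Lef1, a nuclear partner of beta-catenin, fell from 0.45, 0.59 and 1.67 to -1.78, -4.70 and -3.28 (17.8-fold, adjusted p = 0.00014; the log2 change of -4.16 was -4.89 and -3.43 without quadriceps replicate 1 and 2), and its relative Tcf7 from -1.80, -1.99 and -0.89 to a level under background (at least 3.97-fold lower, adjusted p = 3.7e-05). Neither passed in an earlier comparison, except that Tcf7 was lower in proliferating than in passage 0 myoblasts with the authors' values (-1.53, adjusted p = 0.039, against 0.1 as fitted here and 0.73 at most). The largest fall was that of Celsr3 (at least 21.1-fold, adjusted p = 1.9e-06), and Wls fell 4.8-fold (adjusted p = 0.00071). With normexp the change was 2.66-fold for Frzb, 5.74-fold for Lef1 and 7.94-fold for Celsr3. With the authors' values it was 2.97-fold, 7.01-fold and 10.2-fold in the same order. Axin2, a widely used target of beta-catenin signalling, was above background in every sample of no group and was tested in none of the comparisons.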

How the data were processed

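The arrays were Agilent one-colour mouse arrays of 62976 spots scanned with Feature Extraction 10.7.3.1 on build mm9, per the file headers, and the intensity values used are the processed signals the authors deposited, after background subtraction. The authors' deposited value table is in log2 units, with the same median, 6.72, in every column. Its normalization method is not given in the sources used here, and it served as an alternative. Controls and outlier spots were dropped, repeat spots were averaged by probe, and the brightest probe stood for a gene. The log2 signal minus the array's 75th percentile was fitted with limma 3.58.1 in R 4.3.3 as a mean per group over 21 samples (14 residual degrees of freedom), with Benjamini-Hochberg adjustment over all genes tested. The 2 arrays of line E14tg2 were averaged and the NOD/ShiLtj array stayed out of the fit. The 23 arrays lay on 3 slides, each with 1 sample of every group once the repeat E14tg2 array is set aside. The number of arrays limits the precision. A bound compares the brighter group's mean with, on each array of the dimmer group, the higher of the lowest signal well above background and the gene's own.

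Members and gene lists were chosen with earlier results of these data known. Every member is named. Of the other pathway genes those named are the called gene with the largest change in each direction of each comparison, and Axin2, Lef1, Tcf7, Rspo3, Lgr5, Wif1 and Frzb, with Porcn added after its values were seen. Same-numbered day 4 and quadriceps samples deviated together (r 0.151, 0.36 and 0.362 over 12914 genes), and in the other comparisons at least 1 number did not reach 0.1, although proliferating and myotube samples share numbers in their titles. The replicate block changed no call of the set between day 4 and quadriceps. Over all genes it gave 2794 higher and 3102 lower calls there, against 2727 and 3029 without it. Alternatives covered background correction, quantile normalization, the authors' log2 values, the filter, the probe rule, slide and replicate blocks, the samples fitted and leaving out each sample. Differences within culture numbers, and the counts of changes near background, were added after the data were seen. The scripts were tested on simulated data.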

Additional observations from a re-analysis of the deposited data

How the results depend on the processing

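Of the 43 calls of Wnt, Frizzled, Sfrp and Dkk genes 27 held under every alternative that gave a value, 16 were lost under at least 1, 6 of them under at least 5, and none reversed. A further 10 results gained a call. Counts within 1.5 times of the reported one are left out here. With normexp the set gave 0 calls in proliferating against passage 0 myoblasts and 5 in day 4 against proliferating myoblasts, and the other pathway genes gave 1 in day 2 against day 1 and 1 in day 4 against day 2. Quantile normalization gave 3 pathway calls on passaging. The authors' values gave 2 calls of the set and 2 of the pathway on passaging, 1 of the pathway at day 2, and 2 and 1 in day 4 against day 2. Without the filter 0 pathway genes were called on passaging and 0 of the set in day 4 against day 2. Asking for signal in both groups, which tests fewer genes, left 8 of the set and 13 of the pathway in passage 0 against stem cells, 0 and 0 on passaging, 1 of the pathway at day 2 against day 1, 0 of the set in day 4 against day 2, 4 of the set in day 4 against proliferating myoblasts, and 4 and 6 in quadriceps. Fitting the 2 groups alone gave 0 calls of either list on passaging and at day 1, 0 of the set in day 4 against day 2, and 3 and 6 in day 4 against proliferating myoblasts. Leaving out 1 sample at a time gave 0 to 1 calls of the set and 0 to 4 of the pathway on passaging, 2 to 4 and 2 to 5 at day 1, 0 to 1 of the set in day 2 against day 1, 0 to 1 of the set in day 4 against day 2, and 5 to 9 of the set and 12 to 15 of the pathway in day 4 against proliferating myoblasts. The 4 pathway calls came without proliferating replicate 1. Over all genes, higher and lower calls in day 4 against day 2 were 44 and 11, 85 and 36 with normexp, 70 and 32 with quantile normalization and 150 and 72 with the authors' values.

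With the replicate number as a block (replicate block) the set gave 0 calls in day 4 against day 2, and its count was otherwise as reported. Without a minimum fold the count of each list was as reported except for 14 pathway calls in quadriceps. Dim probes limit what can be read, since 4 genes of the set were above background in no sample and 10, these included, never in all 3 samples of a group.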
